A study of Homo sapiens with 2 samples.

Results

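The miR-29 and miR-30 families are sets of human microRNAs (miRNAs) that are made from several genes and share a seed, the short stretch near the 5′ end by which a miRNA recognizes its target mRNAs. They were read on miRNA arrays of exosomes, the small vesicles that cells shed, from FaDu, a human hypopharyngeal squamous carcinoma line. The members were the miRNAs whose name on the array equals hsa-miR-29a-3p, hsa-miR-29b-3p, hsa-miR-29c-3p, hsa-miR-30a-5p, hsa-miR-30b-5p, hsa-miR-30c-5p, hsa-miR-30d-5p, hsa-miR-30e-5p, hsa-miR-30a-3p or hsa-miR-30e-3p, 10 of the 2549 miRNAs on the array. One group of FaDu cells carried a plasmid overexpressing HOTTIP, a long non-coding RNA from the end of the HOXA locus (oe-HOTTIP), and the other a negative control plasmid (oe-NC). Each group has 1 array, hybridized with 200 ng of Cy3-labelled exosomal RNA. The labels name a lentiviral plasmid for both groups, whereas the methods describe plasmids brought into FaDu cells with a lipid reagent, and neither says whether the cells were a clone or a pool. The methods describe isolation with an exosome precipitation reagent for macrophages only.

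With 1 array per group there is no replicate check, no p-value is given, and precision is limited by the number of arrays. The labels of both arrays contradict themselves, since the free-text description of each names the group opposite to its title and treatment. The oe-NC array and the oe-HOTTIP array are named here after title and treatment, and all directions below would be opposite if the descriptions hold. HOTTIP itself has no probe on a miRNA array and cannot settle this. Between 12.9% and 15.3% of the miRNAs were detected per array, and 261 were detected on both. No spot was saturated, and both arrays came from 1 slide and 1 scan. Of 8 miRNAs typical of squamous epithelium, 5 were detected on the oe-NC array and 6 on the oe-HOTTIP array, led by miR-205-5p with an intensity of 415 and 489.9. Their summed intensity was 530 and 640, and the median log2 difference of the 5 detected on both arrays was -0.62 after scaling. Of 7 blood cell miRNAs, 5 were detected on each array, with a summed intensity of 2282 and 2628 that came mainly from the red cell miRNA miR-451a (2233 and 2552), and their log2 differences ran from -1.75 to 1.38. The liver miRNA miR-122-5p was at 8.99 and 14.8 and the endothelial miR-126-3p at 6.81 and 11.0. Of 3 muscle miRNAs, miR-133a-3p was detected only on the oe-NC array (8.94) and miR-206 only on the oe-HOTTIP array (14.4), while miR-1-3p and both markers of fibroblasts and smooth muscle, miR-143-3p and miR-145-5p, were detected on neither array. The part of other cells in the miR-29 and miR-30 values was not tested. A smaller number of vesicles and less miRNA per vesicle cannot be told apart in such RNA.

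A miRNA hairpin yields one strand from each of its arms. The strand that is loaded into Argonaute in most cells is the guide, and the opposite one is usually degraded. The guides of the miR-29 family come from the 3′ arm and are known for repressing collagens and other extracellular matrix genes, the DNA methyltransferases DNMT3A and DNMT3B and the survival factor MCL1. The guides of the miR-30 family come from the 5′ arm and are known for restraining epithelial-mesenchymal transition through SNAI1 and autophagy through BECN1. In the miR-30a and miR-30e hairpins the 3p strand is also stable in many tissues.

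The sequences are shown because family members differ by so few bases that a single position separates some of the values below. They are RefSeq mature sequences (GRCh38.p14), written 5′ to 3′ with the seed, bases 2 to 8, in capitals. RefSeq entries were matched for 8 of the 10 members, all except miR-30b-5p and miR-30d-5p.
miR-29a-3p: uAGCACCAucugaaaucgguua
miR-29b-3p: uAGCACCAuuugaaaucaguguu
miR-29c-3p: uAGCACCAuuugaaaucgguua
miR-30a-5p: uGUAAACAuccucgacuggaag
miR-30c-5p: uGUAAACAuccuacacucucagc
miR-30e-5p: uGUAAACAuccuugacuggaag
miR-30a-3p: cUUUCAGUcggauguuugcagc
miR-30e-3p: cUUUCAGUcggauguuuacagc

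The 3 miR-29 guides shared the seed AGCACCA, the 3 miR-30 guides listed shared GUAAACA, and both miR-30 3p strands listed shared UUUCAGU. Among the miRNAs with a RefSeq sequence, no others on the array carried any of these seeds. The strands miR-30b-5p, miR-30d-5p, miR-30b-3p and miR-30d-3p are on the array but had no matched sequence, so their seeds were not compared. With positions counted from the 5′ end, miR-29a-3p and miR-29c-3p differ by 1 base of 22, C10U. The guides miR-30a-5p and miR-30e-5p also differ by 1 base, C13U, and miR-30a-3p and miR-30e-3p by G18A. All 3 changes lie outside the seed. Over the first 22 bases, miR-29b-3p differs from miR-29a-3p at 4 positions and from miR-29c-3p at 3, and miR-30c-5p differs from both miR-30a-5p and miR-30e-5p at 5. Whether a probe for one member also binds another was not tested, and probe sequences were not used here.

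The hairpins lie in pairs. On the minus strand of chromosome 7, MIR29A (chr7:130876747-130876810) lies 648 bases from MIR29B1 (chr7:130877459-130877539). On the minus strand of chromosome 1, MIR29C (chr1:207801852-207801939) lies 503 bases from MIR29B2 (chr1:207802443-207802523), both within the non-coding host gene MIR29B2CHG. The miR-29b-3p guide is the same from both loci, at chr7:130877467-130877489 and chr1:207802450-207802472, so its signal cannot be assigned to one of them. The guides miR-29a-3p (chr7:130876748-130876769) and miR-29c-3p (chr1:207801865-207801886) have 1 locus each. On the plus strand of chromosome 1, MIR30E (chr1:40754355-40754446) lies 2837 bases from MIR30C1 (chr1:40757284-40757372), both within the span of the protein-coding gene NFYC, which encodes a subunit of the transcription factor NF-Y. On the minus strand of chromosome 6, MIR30A (chr6:71403551-71403621) lies 26519 bases from MIR30C2 (chr6:71376960-71377031). The guide miR-30c-5p comes from both MIR30C1 and MIR30C2.

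Intensity here is the background-subtracted signal of a spot, averaged over the spots of each probe and then over the probes of each miRNA. Its error is the SD over spots within probes, which is technical error inside an array. Detection is the flag that the scanner software sets for each miRNA. On each array 7 of the 10 members were detected, the same 7 on both, namely all 3 miR-29 guides and the miR-30 guides other than miR-30c-5p. Negative control spots had an intensity of 3.87 ± 2.37 (SD, n = 976 spots) on the oe-NC array and 3.45 ± 2.21 (SD, n = 975 spots) on the oe-HOTTIP array. Averaged over probes, miR-29a-3p, miR-29b-3p, miR-29c-3p and miR-30d-5p stood above the mean plus 2 SD of these spots on both arrays (8.62 and 7.87). Of the other detected members, miR-30a-5p, miR-30b-5p and miR-30e-5p each had 1 probe above both limits, and their remaining probes, like probe 2 of miR-29b-3p, were not above both.

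**Figure D1:**
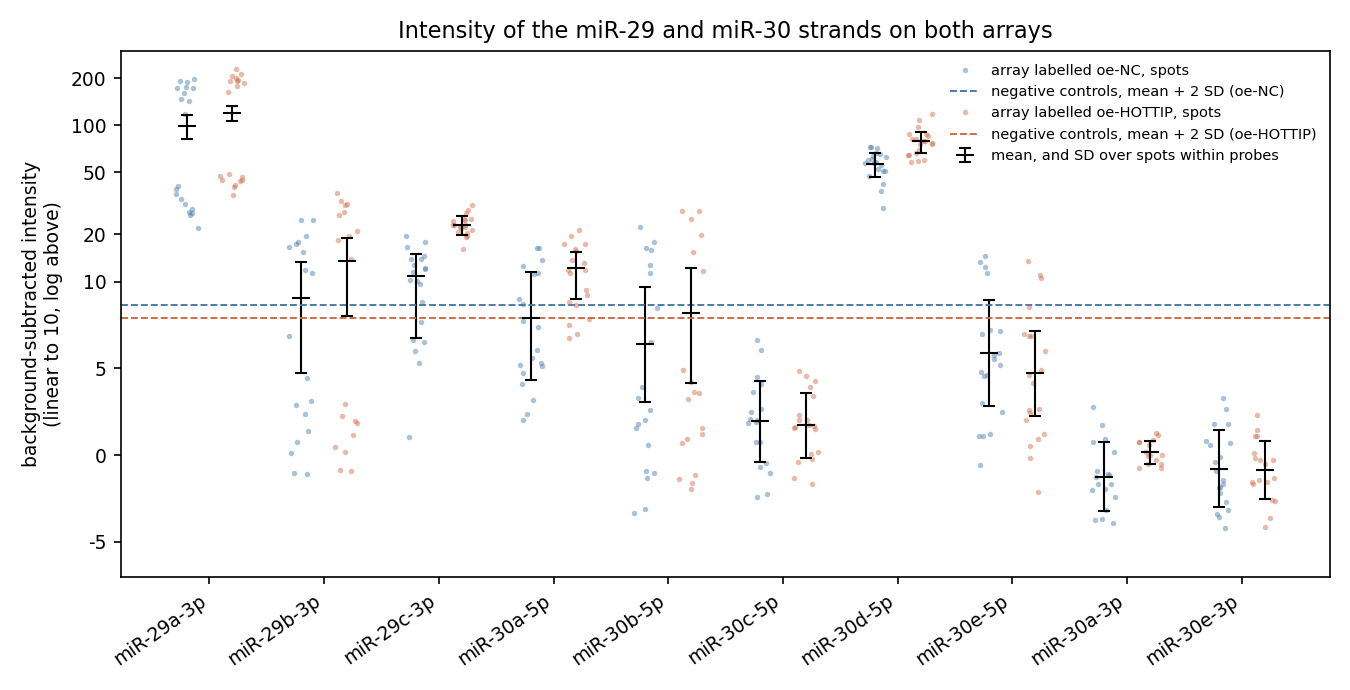
Intensity of each member on both arrays before scaling (vertical axis linear to 10 and logarithmic above). Points are spots without an outlier flag, black bars the mean and the SD over spots within probes, and dashed lines the mean plus 2 SD of the negative control spots (8.62 and 7.87). Spots of miR-29a-3p and miR-30d-5p all lie above these lines, whereas miR-30c-5p, miR-30a-3p and miR-30e-3p lie below them on both arrays.

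To compare arrays, each was divided by its 90th percentile of intensity over the 261 miRNAs detected on both (279.9 on the oe-NC array and 439 on the oe-HOTTIP array). Log2 differences below are those of the scaled values, oe-HOTTIP minus oe-NC. Without scaling, the median difference of the 261 miRNAs was 0.67 in place of 0.02, so unscaled values are to be read relative to that shift. The median of all miRNAs detected on both arrays moved in other settings too. It was 0.48 over 156 miRNAs where detection required over 50% of spots well above background. With the mean of the negative control spots subtracted it was 0.18 over 257 miRNAs, and from the brightest probe 0.13. Values under these settings are likewise to be read relative to their shift. Each difference has a spread, the relative SDs over spots of both arrays combined on the log2 scale, and a standard error (SE) in which the number of spots is taken into account.

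None of the 7 detected members differed by 2-fold or more, the threshold of the methods. Among the 261 miRNAs, 39.1% differed by at least 2-fold in either direction, 21.1% lower and 18.0% higher on the oe-HOTTIP array. Over the 106 miRNAs numbered under 1000, to which both families belong, the share was 19.8%. The median absolute log2 difference was 0.30 for the 7 members, 0.39 for the miRNAs numbered under 1000 and 0.70 for the 261. Ranked by absolute difference, the members stood between place 108 (miR-30e-5p) and place 252 (miR-30a-5p) of 261. In the comparison families, no member detected on both arrays differed by 2-fold either. The let-7 family, regulators of RAS and developmental timing, had 8 of 9 members detected on both arrays with log2 differences from -0.26 to 0.94 (median 0.24). The miR-15/16 family, regulators of the cell cycle and BCL2, had 3 of 6, from -0.25 to 0.20 (median 0.07).

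**Figure D2:**
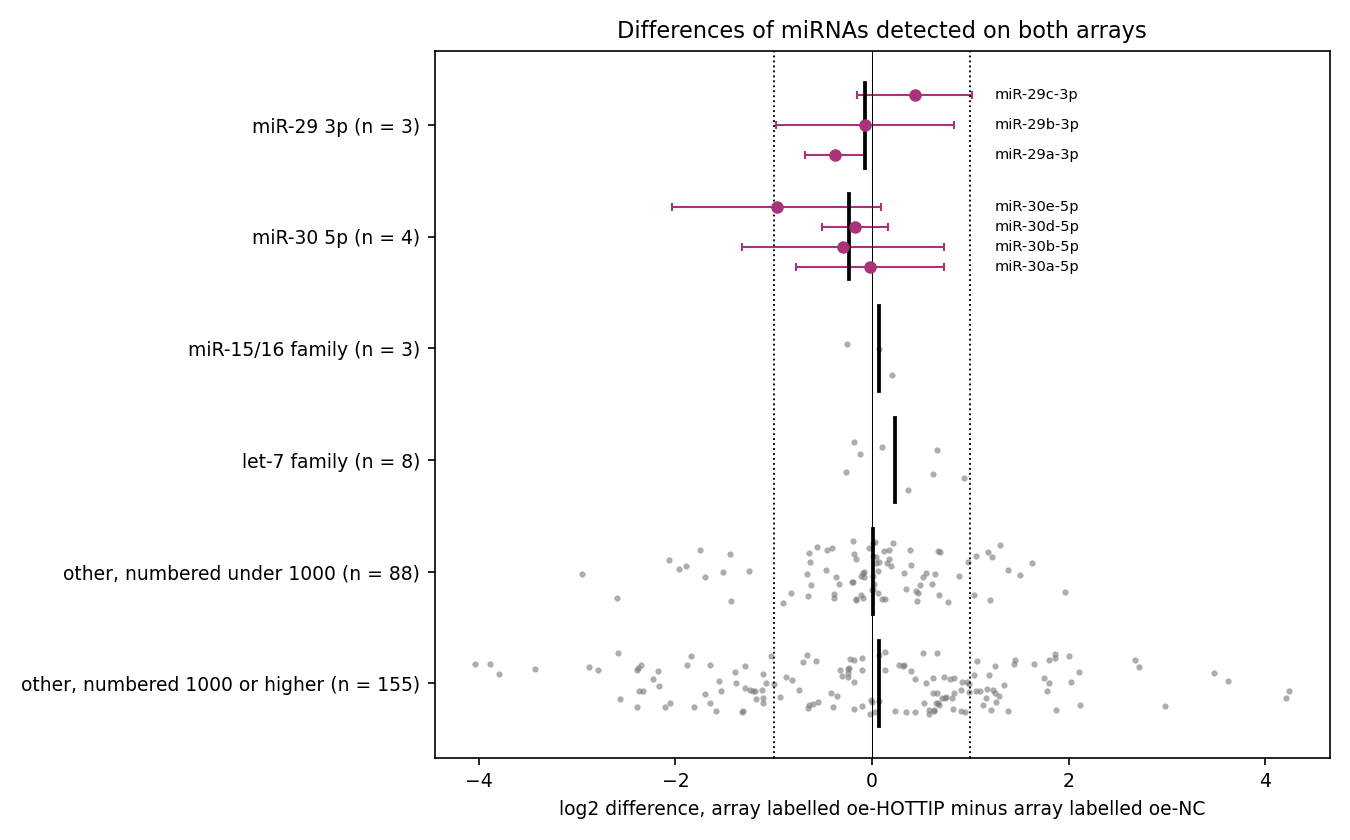
Log2 difference after scaling (oe-HOTTIP minus oe-NC array) of the miRNAs detected on both arrays. Purple points are the 7 detected members with their spread over spots, grey points other miRNAs, black ticks the median of each set and dotted lines a 2-fold difference. All 7 members lie inside the dotted lines, with miR-30e-5p at -0.97 closest to them and miR-29c-3p at 0.43 the only member above 0.

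Within the miR-29 family the guides did not share a direction after scaling, though miR-29b-3p and miR-29c-3p lay within their spread (0.91 and 0.59). All 3 were above 0 without scaling (0.27, 0.58 and 1.08). All 3 were below 0 under normexp background correction with an offset of 50 (-0.38, -0.46 and -0.33). As scaled here, their log2 differences ran from -0.38 for miR-29a-3p through -0.07 for miR-29b-3p to 0.43 for miR-29c-3p, with a median of -0.07. The median took the other sign without scaling (0.58), from the brightest probe (0.10), with the mean of the negative control spots subtracted (0.30) and where detection required over 50% of spots well above background (0.11, miR-29a-3p alone).

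The guide miR-29a-3p had an intensity of 99.2 ± 17.9 (SD, n = 20 spots) on the oe-NC array and 119.9 ± 13.6 (SD, n = 19 spots) on the oe-HOTTIP array. All of these spots were well above background. As a share of the 90th percentile of its array, it was 35.5% on the oe-NC array and 27.3% on the oe-HOTTIP array, a log2 difference of -0.38 (spread 0.31, SE 0.069). Thus the raw signal was higher on the oe-HOTTIP array and the scaled signal was lower there. This was the only member whose difference exceeded its spread over spots. That is not particular to it, since let-7a-5p (0.67, spread 0.34) and let-7f-5p (0.94, spread 0.53) also exceeded theirs. Of the 261 miRNAs, 70.1% had a larger absolute difference than miR-29a-3p. The difference of miR-29a-3p was above 0 without scaling (0.27) and with detection by over 50% of spots (0.11). Under these settings it was below the medians of all miRNAs (0.67 and 0.48). Its probes differed in brightness and had the same direction. Probe 1 had a median of 30.1 (22.0 to 40.7 over 10 spots) and of 44.4 (35.8 to 49.0 over 9 spots), and probe 2 a median of 174 (119 to 197 over 10 spots) and of 194 (164 to 229.9 over 10 spots). Their log2 differences were -0.18 and -0.42.

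The guide miR-29c-3p, which differs from miR-29a-3p by C10U, had an intensity of 10.9 ± 4.14 (SD, n = 20 spots) on the oe-NC array and 23.1 ± 3.32 (SD, n = 19 spots) on the oe-HOTTIP array. Spots well above background numbered 10 of 20 on the former and 19 of 19 on the latter. On the raw scale this was 2.12-fold, and after scaling a log2 difference of 0.43 (spread 0.59, SE 0.13). This difference was positive in the alternatives tried on the scanner output except normexp background correction with an offset of 50 (-0.33). Under that setting the median of the 261 miRNAs was -0.33 as well. Both probes lay in the same direction. Probe 1 had raw spots from 1.04 to 14.0 on the oe-NC array and from 16.2 to 25.0 on the oe-HOTTIP array. Its log2 difference was 0.68 after scaling. For probe 2 the raw spots ran from 5.32 to 19.6 and from 19.5 to 30.7, with a log2 difference of 0.24 after scaling. These raw ranges include the shift between the arrays (0.67 for the median of all miRNAs without scaling), so they do not show separate ranges after scaling.

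Between these near-identical guides, the log2 difference of miR-29c-3p exceeded that of miR-29a-3p by 0.81 (spread 0.66, SE 0.15), or 1.76-fold. Dividing an array by a constant does not alter this value. Each probe of miR-29c-3p had a higher log2 difference than each probe of miR-29a-3p. In the 8 alternatives that could move it, leaving out the normalized table with its columns as named (-0.90), it ranged from 0.055 to 1.20. With detection by over 50% of spots it had no value, since miR-29c-3p then counted as detected on the oe-HOTTIP array only. The lowest value, 0.055, came from normexp with an offset of 50, which pulls dim signals together. The distance of 0.81 is the full range of the miR-29 guides. The range was 1.20 over 8 let-7 members and 0.45 over 3 members of the miR-15/16 family.

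The guide miR-29b-3p, shared by both miR-29 loci, had an intensity of 9.05 ± 4.33 (SD, n = 19 spots) on the oe-NC array and 13.5 ± 5.48 (SD, n = 19 spots) on the oe-HOTTIP array. Its log2 difference was -0.07 (spread 0.91, SE 0.21), and above 0 in 3 of 14 alternatives other than the table with its columns as named. The signal came from 1 of its 2 probes. Probe 1 read 16.6 and 26.0 with a log2 difference of -0.01, while probe 2 read 1.44 and 1.01 with no spot well above background on either array. The value of miR-29b-3p lay between those of miR-29a-3p and miR-29c-3p, 0.30 above the former (spread 0.96) and 0.51 below the latter (spread 1.08), and neither distance exceeded its spread.

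**Figure D3:**
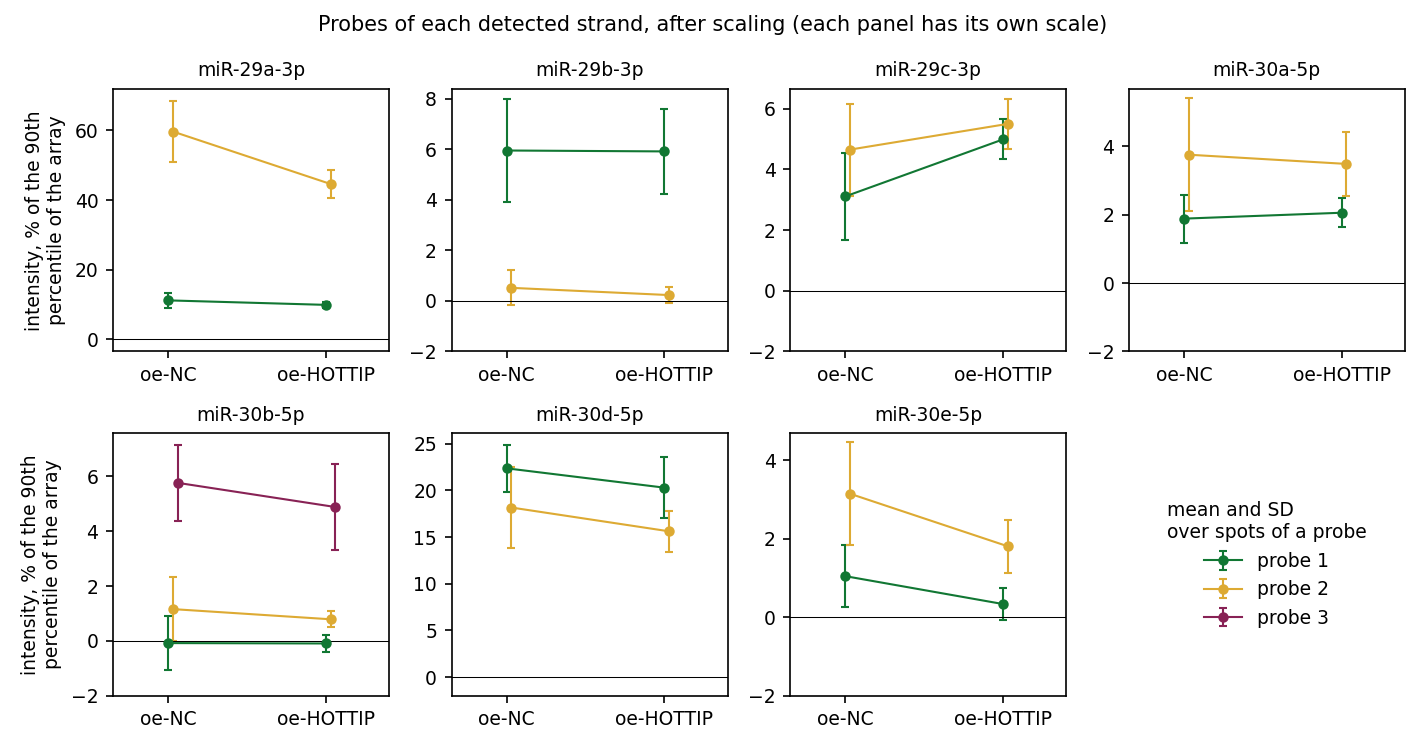
Scaled intensity of every probe of the 7 detected members on both arrays, as a percent of the 90th percentile of the array (each panel has its own linear scale, and lines join the values of a probe). Points are means over the spots of a probe and bars their SD. Both probes of miR-29c-3p are higher on the oe-HOTTIP array and both probes of miR-29a-3p and miR-30d-5p are lower. In miR-29b-3p, miR-30b-5p and miR-30e-5p at least 1 probe lies near 0, at the level of background.

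In the miR-30 family, the 4 detected guides had log2 differences from -0.97 to -0.02 with a median of -0.24. All 4 were below 0, as were 126 of the 261 miRNAs, and each of the 4 lay within its spread over spots. The median of the guides was above 0 without scaling (0.42), with the mean of the negative control spots subtracted (0.05) and with detection by over 50% of spots (0.31, miR-30d-5p alone). Only miR-30d-5p was bright enough on both arrays for all of its spots to stand well above background. Its intensity was 56.7 ± 10.01 (SD, n = 20 spots) on the oe-NC array and 78.9 ± 12.1 (SD, n = 20 spots) on the oe-HOTTIP array, a log2 difference of -0.17 (spread 0.34, SE 0.075) that lay within its spread. It was above 0 without scaling (0.48) and with detection by over 50% of spots (0.31), but below the medians of all miRNAs (0.67 and 0.48). Probe 1 read 62.6 and 89.2 and probe 2 read 50.9 and 68.6, with log2 differences of -0.14 and -0.22.

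The guide miR-30e-5p had the largest difference of the 7 detected members. It had an intensity of 5.87 ± 3.04 (SD, n = 20 spots) on the oe-NC array and 4.71 ± 2.47 (SD, n = 20 spots) on the oe-HOTTIP array, and was thus the only detected member with a lower raw signal on the oe-HOTTIP array. After scaling it was 1.96-fold lower, a log2 difference of -0.97 (spread 1.06, SE 0.24) within its spread. It passed 2-fold with the 90th percentile over all miRNAs (-1.14), with scaling by the median (-1.10), with quantile normalization (-1.09) and with the mean of the negative control spots subtracted (-1.33). In the same order, the median of all miRNAs detected on both arrays was -0.15, -0.11, -0.12 and 0.18, in place of 0.02. The values of miR-30e-5p rest on dim spots, since 4 of 20 and 1 of 20 were well above background, all of them of probe 2. Probe 2 read 8.81 and 7.94, just above the mean plus 2 SD of the negative controls on both arrays (8.62 and 7.87), with spots from 4.64 to 14.5 and from 4.17 to 13.6 and a log2 difference of -0.80. Probe 1 read 2.93 and 1.47, under the mean of the negative controls with no spot well above background, so it gives no difference of its own but enters the average of -0.97.

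The guide miR-30a-5p had an intensity of 7.90 ± 3.55 (SD, n = 20 spots) on the oe-NC array and 12.2 ± 3.22 (SD, n = 19 spots) on the oe-HOTTIP array. Its log2 difference was -0.02 (spread 0.75, SE 0.17), and it was above 0 in 4 of 13 alternatives on the scanner output or the table with columns exchanged. Probe 2 read 10.5 and 15.3 with a log2 difference of -0.11, while probe 1, at 5.28 and 9.05, had no spot well above background on the oe-NC array. The log2 difference of miR-30e-5p, which differs from this guide by C13U, minus that of miR-30a-5p was -0.94 (spread 1.30, SE 0.29), within the spread. In the 8 alternatives that could move this distance, leaving out the table with its columns as named (0.99), it ran from -1.79 to -0.09. It had no value with detection by over 50% of spots or by the negative control limits, under which miR-30e-5p was not kept.

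The guide miR-30b-5p had an intensity of 6.39 ± 3.30 (SD, n = 20 spots) on the oe-NC array and 8.17 ± 4.01 (SD, n = 19 spots) on the oe-HOTTIP array, a log2 difference of -0.30 (spread 1.03, SE 0.23) that was above 0 without scaling (0.36) and with the negative controls subtracted (0.25). It was the only member with 3 probes, and probe 3 carried the signal, with raw means of 16.1 and 21.5 and all 6 spots well above background on each array. Probes 1 and 2 read -0.23 and 3.24 on the oe-NC array and -0.42 and 3.46 on the oe-HOTTIP array, with no spot well above background. From probe 3 alone the log2 difference was -0.24. The guide miR-30c-5p, made from both the NFYC locus and the chromosome 6 locus, was not detected, at 1.95 ± 2.32 (SD, n = 18 spots) and 1.72 ± 1.87 (SD, n = 19 spots), under the mean of the negative controls on both arrays. No fold is given for it.

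Both 3p strands were at or below background. The intensity of miR-30a-3p was -1.24 ± 1.96 (SD, n = 18 spots) on the oe-NC array and 0.17 ± 0.66 (SD, n = 15 spots) on the oe-HOTTIP array. For miR-30e-3p the values were -0.79 ± 2.23 (SD, n = 20 spots) and -0.87 ± 1.69 (SD, n = 18 spots). Neither strand had a spot well above background, so the guides of both hairpins were detected and their partners were not. Of the other 8 strands of these hairpins on the array (miR-29a-5p, miR-29b-1-5p, miR-29b-2-5p, miR-29c-5p, miR-30b-3p, miR-30c-1-3p, miR-30c-2-3p and miR-30d-3p), 7 were detected on neither array. So were 2092 of all 2549 miRNAs. The scanner software marked miR-30c-1-3p on the oe-HOTTIP array alone, at 2.43 ± 2.86 (SD, n = 20 spots) against -0.40 ± 2.15 (SD, n = 20 spots). That signal was the lowest of any miRNA called detected there, lay under the mean of the negative controls and had 1 spot well above background, so the 1.59-fold by which it exceeded the lowest detected signal of the oe-NC array after scaling is not a strict bound. A level that does not exceed background on these arrays is not shown to be absent.

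**Figure D4:**
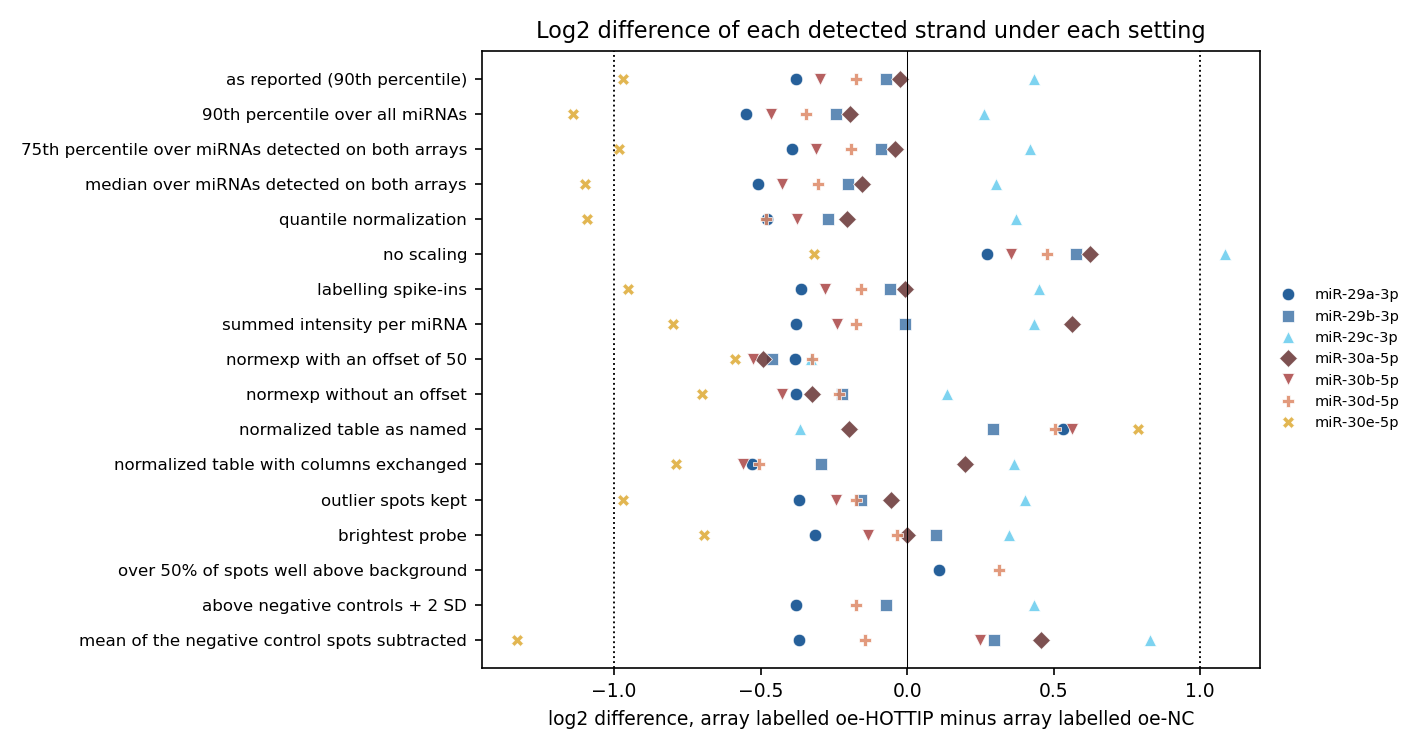
Log2 difference (oe-HOTTIP minus oe-NC array) of each detected member as reported, in the first row, and under each alternative setting, for members detected on both arrays under it. Dotted lines mark a 2-fold difference. Points move together to the right without scaling, miR-29c-3p stays to the right of miR-29a-3p wherever both are shown except in the normalized table with its columns as named, and miR-30e-5p crosses the left dotted line in 4 settings.

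In the authors' normalized table on a log2 scale, the column named for oe-NC held 4.66 for miR-29a-3p and the column named for oe-HOTTIP 5.19. The corresponding values were 2.34 and 1.98 for miR-29c-3p, 3.99 and 4.49 for miR-30d-5p and 0.08 and 0.87 for miR-30e-5p. These directions oppose those of the scanner output. Across miRNAs, which are not replicates, each column ranked like the scanner output of the array with the opposite title (Spearman's rho 1.00, n = 388 and n = 315 miRNAs). The column names thus go with the free-text descriptions of the arrays and against their titles, and which of them is right cannot be told from the files. With its columns exchanged, the table gave log2 differences of -0.53 for miR-29a-3p, 0.37 for miR-29c-3p and -0.79 for miR-30e-5p. The strands miR-30c-5p, miR-30a-3p and miR-30e-3p stood at the floor of the table (1e-06) in both columns.

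Outside both families, the miRNAs whose log2 difference lay nearest the miR-29 median of -0.07 were miR-671-5p (-0.08), miR-27b-3p (-0.08) and miR-22-3p (-0.09). Nearest the miR-30 median of -0.24 were miR-1287-5p (-0.23), miR-1237-3p (-0.24) and miR-4516 (-0.25). This likeness was measured by 1 difference between 2 arrays, and many miRNAs have differences of such size.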

How the data were processed

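The members, lists and tests were chosen with earlier results of these data known. RNA was extracted with TRIzol and purified with a small RNA kit, and Cy3-labelled RNA was hybridized to Agilent one-colour arrays, per the labels and methods. The authors deposited scanner output with a background-subtracted intensity per spot, and a table of normalized log2 values, for which the methods name GeneSpring and 90th percentile normalization. Feature Extraction is given as version 10.10 in the submitters' processing notes and 11.5.1.1 in the file headers.

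Control spots and outlier spots were dropped. Scaling preceded log2, with no floor or pseudocount. A miRNA detected on 1 array was set against its own signal on the other array or the lowest detected signal there, whichever was larger. Squared relative SDs over spots were added for the spread, and divided by spot numbers for the SE. No test was possible with 1 array per group. Spot error excludes variation between cultures, and depth does not apply to arrays.

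Named miRNAs are all members, the other strands of their hairpins, the marker lists and comparison families given above, and the 3 miRNAs nearest each family median. The summary was tested on simulated data. The 16 alternatives covered scaling, background correction, summed intensity, probe choice, outlier spots, detection rules and the normalized table, 15 set with the design and 1 added after seeing the data. For normexp, median spot signals were used. The background correction ran in limma 3.58.1 under R 4.3.3, everything else in Python 3.11.15 with pandas 2.3.3, numpy 2.4.6 and, for plots, matplotlib 3.10.9.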

Additional observations from a re-analysis of the deposited data

How the results depend on the processing

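No paired analysis was possible because a group holds only 1 array, and leaving out a replicate was not possible for the same reason. Subtracting the mean of the negative control spots was chosen after seeing the data. The number of members past 2-fold was 1 in place of 0 under the 90th percentile over all miRNAs, median scaling, quantile normalization and negative control subtraction (miR-30e-5p, lower), and 1 without scaling (miR-29c-3p, higher, at 1.08). The miR-29 median was 0.58 without scaling. The log2 difference of miR-29c-3p minus that of miR-29a-3p was 0.055 with normexp and an offset of 50 and -0.90 in the normalized table with its columns as named, where that of miR-30e-5p minus that of miR-30a-5p was 0.99, since the columns follow the opposite arrays. Apart from that table, the miR-29 median ranged from -0.38 to 0.58 and the miR-30 median from -0.53 to 0.42 over 15 alternatives. Of 104 values of single members under the 16 alternatives, 94 moved by less than their spread over spots and 10 by more. The 94 include values that a setting could not change, and dim members have a wide spread. No value of miR-29b-3p, miR-30a-5p or miR-30b-5p moved by more than its spread. Yet their sign changed in 3 of 14, 4 of 13 and 2 of 13 alternatives other than the table with its columns as named. Neither miR-30a-3p nor miR-30e-3p was detected by the spot or negative control rules, and both were at the floor of the table; the other alternatives keep the scanner's detection flag and could not change this. Signal over background limits miR-29b-3p, miR-30a-5p, miR-30b-5p and miR-30e-5p, each of which had at most 10 spots well above background on either array. It also limits miR-29c-3p on the oe-NC array, where 10 of 20 spots were well above background. Its probe 1 read 8.71 there, against a negative control mean plus 2 SD of 8.62, with 3 of 10 spots well above background.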
